A study of Arabidopsis thaliana with 12 samples.

Results

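The alpha-expansin (EXPA) and xyloglucan endotransglucosylase/hydrolase (XTH) genes of Arabidopsis thaliana were examined for binding of SOB3 in short-day seedlings. The 41 members were chosen by locus and comprised EXPA1 to EXPA18 (18 genes) and 23 XTH genes, out of 27444 nuclear protein-coding genes. A peak was assigned to a gene if it overlapped the gene body, the 2000 bp upstream of it or the 1000 bp downstream of it by at least 1 bp. Chromatin came from whole seedlings of the Columbia (Col-0) ecotype in which SOB3-GFP was driven by the SOB3 promoter in the sob3-4 mutant, and was precipitated with an anti-GFP antibody. This genotype was the same in every sample, and no sample without the GFP fusion was analysed here. Seedlings were grown at 22 °C with 8 h of light and 16 h of darkness and were collected at ZT4 (4 h after dawn, 5 days old), ZT9 (1 h after lights off, 5 days old) or ZT24 (the next dawn, 6 days old). Each time point had 3 ChIP replicates, each with its own peak list, and 1 input (chromatin without precipitation) was made per time point. The study describes its fold tracks, which come from the same peak calling, as set against the respective inputs.

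The plant cell wall holds cellulose microfibrils tethered by xyloglucan, and a growing cell enlarges only as far as this network yields. Alpha-expansins loosen the wall under acidic conditions without cutting its polymers, whereas XTH enzymes cut xyloglucan chains and join them to other chains or to water. Both families are widely used as markers of elongating tissue, the hypocotyl included. SOB3 is an AT-hook protein, a type that contacts the minor groove of AT-rich DNA, and it represses hypocotyl elongation.

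Selected upstream sites are printed first as examples of the DNA under member peaks, and sites downstream of or inside genes, among them 5 of the 8 whose rank differed between time points, are given by position only. EXPA1, EXPA10 and EXPA8 had the 3 highest-ranking EXPA sites, XTH5 had a high-ranking site just before its start, XTH15 is the member that the study names (as XTR7; its site at −451 bp is shown, not the one that differed between time points), XTH23 and XTH6 had upstream sites whose rank differed between time points, and the XTH21 site was listed at ZT24 only. Each window is at most 200 bases around the summit, clear of annotated exons, read from the RefSeq TAIR10.1 genome and written 5′ to 3′ on the gene's strand. Capitals mark matches on either strand to TCP-like (GGACCA or GGCCCA or GGTCCA), PIF-like (CACATG or CACACG or CACGTG or CACGCG) and AT-rich (AAATAAAA or AAATAATA or ATATAAAA or ATATAATA) motifs, which can overlap each other. TCP and PIF proteins are transcription factor families of plant growth control, with promoting and restraining members, that recognise sequences of these types, and a match is a run of letters, not a measured site.
EXPA1 (AT1G69530, chr1:26141480-26141679, plus strand): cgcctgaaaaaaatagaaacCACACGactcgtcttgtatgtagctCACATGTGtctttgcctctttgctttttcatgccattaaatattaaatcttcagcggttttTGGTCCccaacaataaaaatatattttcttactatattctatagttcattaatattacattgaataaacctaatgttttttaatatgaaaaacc
EXPA10 (AT1G26770, chr1:9257759-9257958, plus strand): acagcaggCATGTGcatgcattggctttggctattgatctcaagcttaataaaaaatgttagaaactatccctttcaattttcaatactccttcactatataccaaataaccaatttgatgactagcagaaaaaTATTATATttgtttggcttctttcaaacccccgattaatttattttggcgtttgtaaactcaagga
EXPA8 (AT2G40610, chr2:16952323-16952522, minus strand): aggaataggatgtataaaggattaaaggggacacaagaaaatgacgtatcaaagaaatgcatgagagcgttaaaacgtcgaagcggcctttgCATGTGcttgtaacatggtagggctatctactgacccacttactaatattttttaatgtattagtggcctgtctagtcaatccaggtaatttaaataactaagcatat
XTH5 (AT5G13870, chr5:4477091-4477241, minus strand): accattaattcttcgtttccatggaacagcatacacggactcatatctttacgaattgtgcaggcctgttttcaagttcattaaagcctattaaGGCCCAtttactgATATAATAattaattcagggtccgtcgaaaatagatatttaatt
XTH15 (AT4G14130, chr4:8138743-8138942, minus strand): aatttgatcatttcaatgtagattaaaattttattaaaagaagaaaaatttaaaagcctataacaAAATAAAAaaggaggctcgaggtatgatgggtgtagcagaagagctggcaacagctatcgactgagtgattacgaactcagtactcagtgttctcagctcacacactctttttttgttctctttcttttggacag
XTH23 (AT4G25810, chr4:13128165-13128364, plus strand): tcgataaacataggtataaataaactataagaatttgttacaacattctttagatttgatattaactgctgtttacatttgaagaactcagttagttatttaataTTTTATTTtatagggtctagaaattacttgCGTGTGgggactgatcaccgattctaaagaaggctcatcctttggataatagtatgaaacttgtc
XTH6 (AT5G65730, chr5:26298308-26298507, plus strand): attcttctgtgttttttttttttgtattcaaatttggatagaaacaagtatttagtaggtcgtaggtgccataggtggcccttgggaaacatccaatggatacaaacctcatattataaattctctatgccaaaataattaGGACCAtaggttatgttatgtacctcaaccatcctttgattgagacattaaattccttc
XTH21 (AT2G18800, chr2:8144462-8144638, plus strand): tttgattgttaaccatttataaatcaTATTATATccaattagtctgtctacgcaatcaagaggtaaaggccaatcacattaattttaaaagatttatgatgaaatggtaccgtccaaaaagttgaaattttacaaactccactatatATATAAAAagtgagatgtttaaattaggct
The EXPA1 window held 3 PIF-like matches, of which an overlapping pair forms a single run, and 1 TCP-like match. The EXPA10 window held 1 PIF-like and 1 AT-rich match, and the EXPA8 window 1 PIF-like match. The XTH5 window held 1 TCP-like and 1 AT-rich match, and the XTH21 window 2 AT-rich matches.

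Most members of both families carried SOB3-GFP peaks at every time of day. A gene was counted as bound at a time point if it had a window peak in at least 2 of the 3 replicates. At all 3 time points, 14 of 18 EXPA genes (77.8%) and 21 of 23 XTH genes (91.3%) were bound, against 61.3% of all genes. By time point, 14, 15 and 14 EXPA genes were bound at ZT4, ZT9 and ZT24, and 21, 21 and 22 XTH genes, against 68.1%, 66.3% and 68.3% of all genes. The same 14 EXPA and 21 XTH genes had a peak in all 9 lists, against 52.4% of all genes. EXPA14 and EXPA17, both known from lateral root formation, and EXPA18, known from root hairs, had no peak in any list, as did 20.3% of all genes. No XTH member lacked a peak altogether. In whole seedlings, binding in few cells and weak binding in many cells cannot be told apart. A gene without a listed peak had no peak past the threshold of the peak caller, which is not a measured zero.

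The difference in the bound share between the families depended on which family members were listed. The XTH family has 10 further genes in this genome, and of these 3 were bound at all 3 time points and 5 (XTH1, XTH2, XTH3, XTH10 and XTH29) had no peak in any list. With the whole families, 18 of 25 EXPA genes (72.0%) and 24 of 33 XTH genes (72.7%) were bound at all 3 time points. When only peaks of −log10 q 10 or more were kept, 8 EXPA and 17 XTH genes of the original lists were bound at all 3 time points, against 34.0% of all genes. With a window of 1000 bp upstream to 100 bp downstream of the start, the counts were 9 of 18 EXPA genes and 21 of 23 XTH genes, against 45.0% of all genes. The EXPA genes that were then no longer bound at all 3 time points were EXPA2, EXPA4, EXPA5, EXPA7 and EXPA13.

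Of the 41 members, 3 had a peak in some lists only. XTH21, which acts in root growth, had a peak in 0 of 3 lists at ZT4, 0 of 3 at ZT9 and 3 of 3 at ZT24. Its fold enrichment (the pileup of ChIP fragments at the summit over the local background, with 1 added to both by the peak caller) was 2.24, 2.69 and 2.58 in the 3 ZT24 lists. These peaks lay at the 25.04, 45.2 and 39.7 percentile of their lists by fold, with pileups of 2.58, 3.02 and 2.97 times the genome mean of the list (the average fragment cover, 12.1 to 15.8 by list). A peak in all 3 ZT24 lists and in none of the other 6 was found for 22 of all genes (0.0802%), and the same pattern at any single time point for 66 genes (0.24%). EXPA16 had a peak in 1, 2 and 1 lists at ZT4, ZT9 and ZT24, with a fold of 2.20 in the ZT4 list, folds of 1.98 and 1.59 in the ZT9 lists and a fold of 1.80 in the ZT24 list. Its only site lay 2481 bp past its start and closer to the start of AT3G55490. XTH20, a relative of XTH17, XTH18 and XTH19, had a single peak, in 1 ZT9 list, with a fold of 1.82. EXPA16 and XTH21 were the members bound at 1 or 2 time points, a class that held 12.3% of all genes.

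Peaks were then ranked by fold enrichment within their own list and expressed as a percentile, since folds of different lists rest on different depths. The best window peak of a gene ranked higher in the XTH family than in the EXPA family. Over genes with a peak in all 9 lists, the median of the mean percentile was 66.0 for EXPA (14 genes) and 82.3 for XTH (21 genes), against 71.1 for all such genes (14388). The EXPA minus XTH difference of medians was −16.3 percentile points with all lists averaged. It was negative in 9 of 9 single lists and lay between −29.5 and −7.998 (SD over lists 7.71). Mean percentiles above 75 were reached by 5 EXPA and 14 XTH genes, against 44.1% of all genes with a peak in all 9 lists, and above 90 by 3 EXPA and 10 XTH genes, against 17.7%. With percentile 0 for genes without a peak, which keeps all members, the medians were 59.7 for EXPA and 81.7 for XTH. Between these 2 small families the difference is given as a description, since members of a family are not replicates.

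**Figure D1:**
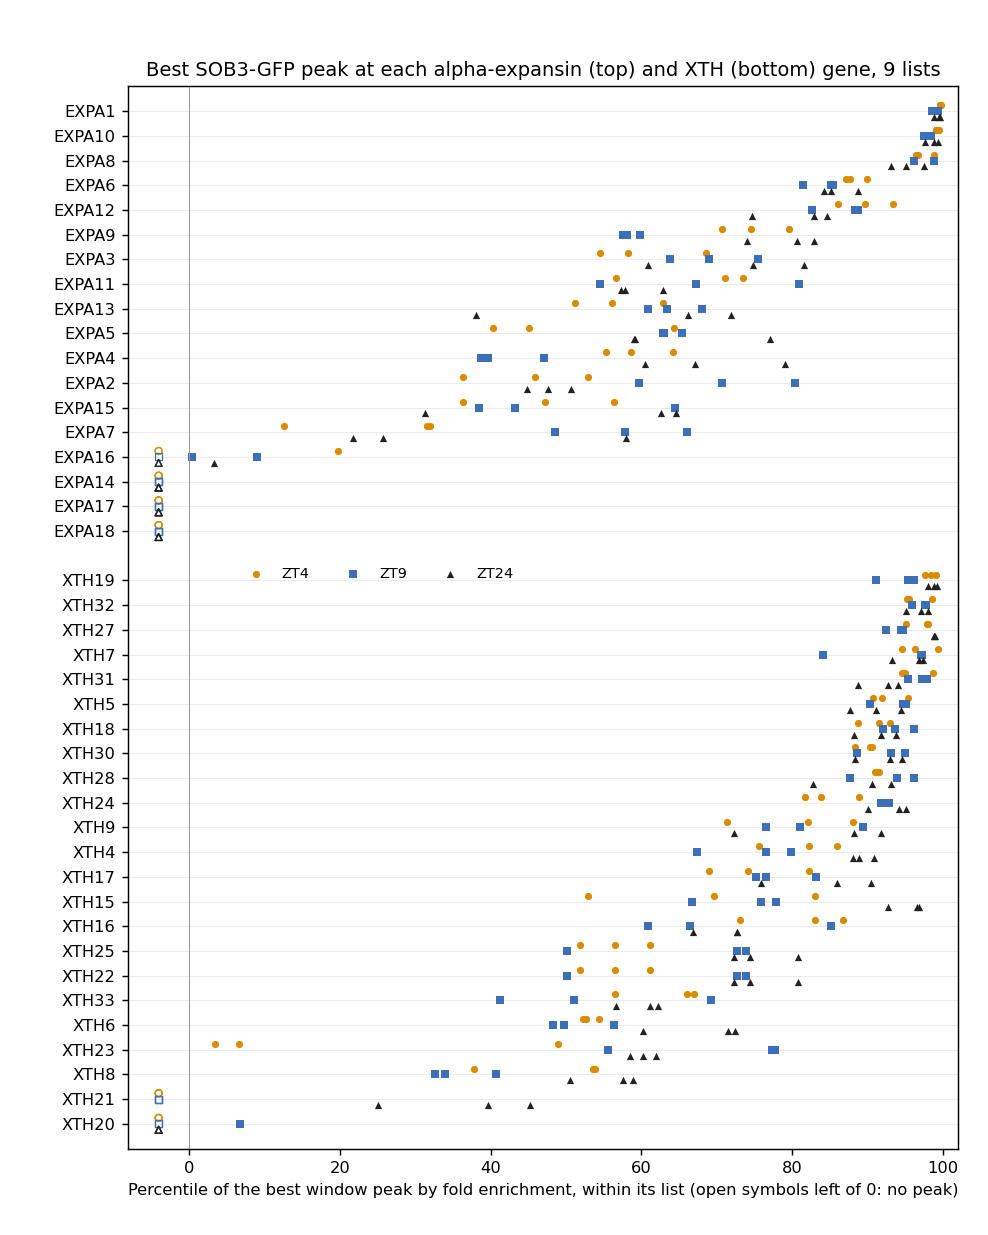
Percentile of the best window peak by fold enrichment within its list (x axis) for each member (rows, EXPA above XTH), with ZT4 as circles, ZT9 as squares and ZT24 as triangles and lists without a peak as open symbols left of 0. EXPA1, EXPA10 and EXPA8 stayed above the 90th percentile in all 9 lists, EXPA14, EXPA17 and EXPA18 had no peak, and XTH21 had peaks in the ZT24 lists only.

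**Figure D2:**
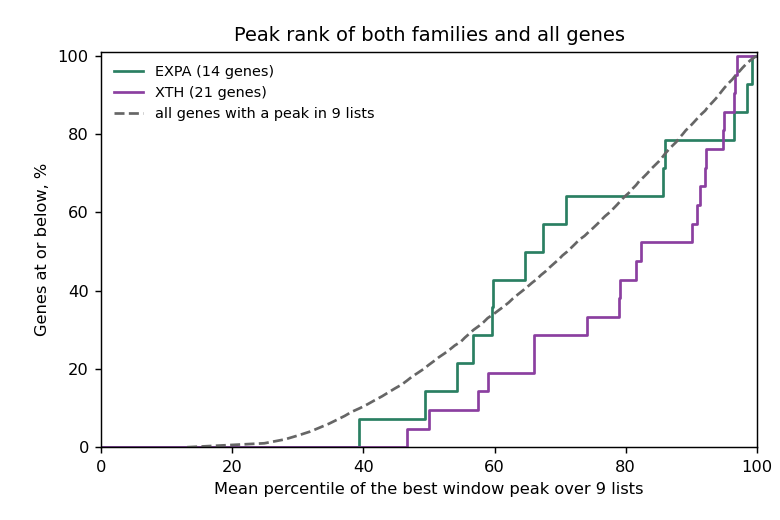
Cumulative share of genes (y axis, %) by mean percentile of the best window peak over the 9 lists (x axis), for EXPA (14 genes), XTH (21 genes) and all genes with a peak in 9 lists. The XTH curve lies to the right of the all-gene curve over most of its range, with a median of 82.3 against 71.1, while the EXPA median is 66.0.

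EXPA1, which is expressed in guard cells and elongating tissue, had the strongest peak of the family. Its folds were 9.595, 8.28 and 9.23 in the ZT4 lists, 8.15, 7.01 and 6.31 in the ZT9 lists, and 9.12, 7.98 and 8.65 in the ZT24 lists. In every list the peak ranked above the 98th percentile. The ZT9 folds were all below the ZT4 folds, and the ZT24 folds overlapped with both. The summit lay at −146 bp from the annotated start (negative positions are upstream), with a mean pileup of 10.8 times the genome mean.

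EXPA10, a gene of leaf growth, had folds of 8.72, 7.11 and 8.99 in the ZT4 lists, 7.20, 6.34 and 6.03 in the ZT9 lists, and 8.67, 8.00 and 6.83 in the ZT24 lists. EXPA8 had folds of 8.48, 5.81 and 6.72 in the ZT4 lists, 7.57, 5.89 and 5.25 in the ZT9 lists, and 7.002, 6.17 and 5.47 in the ZT24 lists. Both summits lay well upstream, at −1573 bp for EXPA10 and −1718 bp for EXPA8, and the time points overlapped in both genes. EXPA6 (AT2G28950) had folds of 5.46, 4.21 and 4.83 in the ZT4 lists, 4.48, 4.29 and 3.59 in the ZT9 lists, and 4.51, 5.00 and 4.43 in the ZT24 lists. EXPA12 (AT3G15370) had folds of 5.42, 5.03 and 4.66 in the ZT4 lists, 4.87, 4.06 and 4.12 in the ZT9 lists, and 4.54, 4.37 and 3.71 in the ZT24 lists. The best EXPA6 site over the lists was at −168 bp and gave the ZT9 and ZT24 values, while the 3 ZT4 values came from a site 2795 bp past the start, nearest to the start of AT2G28940. The best EXPA12 site was 2240 bp past its start and nearest to the start of AT3G15380. The remaining 9 EXPA genes with a peak in all 9 lists had mean percentiles between 39.4 (EXPA7, a root hair expansin) and 70.9 (EXPA9).

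Among the XTH genes, XTH19 (AT4G30290), a member of the root-expressed XTH17 to XTH20 group, ranked highest. Its folds were 8.10, 6.27 and 8.32 in the ZT4 lists, 6.08, 5.90 and 4.42 in the ZT9 lists, and 8.57, 7.90 and 7.11 in the ZT24 lists. The 3 ZT9 lists had the lowest XTH19 folds, without overlap with the other time points. XTH32 (AT2G36870), from the group to which xyloglucan-cutting hydrolases belong, had folds of 6.70, 6.71 and 6.21 in the ZT4 lists, 6.84, 6.52 and 5.21 in the ZT9 lists, and 7.31, 6.77 and 5.92 in the ZT24 lists, and these overlapped throughout. The best XTH19 peak of ZT9 replicate 2 was that of the site shared with XTH18. Both summits sat at the gene start, 33 bp inside XTH19 and 18 bp inside XTH32.

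XTH27 (AT2G01850), a gene of leaf vein formation, had folds of 7.76, 5.40 and 7.34 in the ZT4 lists, 5.43, 5.48 and 4.94 in the ZT9 lists, and 8.04, 8.00 and 7.87 in the ZT24 lists. Its ZT24 lists were the highest and did not overlap with the other time points, but the best site (all lists except ZT9 replicate 1, where an upstream site had the higher fold) lay 2313 bp past the start, nearest to the start of AT2G01860, and did not pass the test over the 3 time points (limma F test on the fold rank, adjusted p = 0.056), although its contrast of ZT24 against ZT9 passed (limma, adjusted p = 0.039). XTH7 (AT4G37800) had folds of 9.29, 5.27 and 6.54 in the ZT4 lists, 6.66, 6.23 and 3.76 in the ZT9 lists, and 6.96, 6.70 and 5.51 in the ZT24 lists. Its best peak reached into the window from a broad site whose summit was nearest to AT4G37790, so the value is that of a neighbouring summit. XTH31 (AT3G44990), a xyloglucan hydrolase, had folds of 6.56, 5.30 and 7.77 in the ZT4 lists, 6.66, 6.61 and 5.11 in the ZT9 lists, and 5.03, 5.58 and 5.68 in the ZT24 lists, with overlap between the time points. The remaining 16 XTH genes with a peak in all 9 lists had mean percentiles between 46.6 (XTH8) and 92.3 (XTH5).

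The sites of the EXPA genes lay farther from the gene starts than those of the XTH genes, while the number of sites per gene was alike; both are descriptions without a test. EXPA windows held 43 sites and XTH windows 64 gene-site pairs (61 sites, since XTH22 shares 2 sites, its best one included, with its tandem neighbour XTH25, and XTH18 shares 1 with XTH19), with a median of 3 sites per gene in both families and of 2 in all genes. Sites from 1000 bp before to 100 bp after the start were 9 of 43 (20.9%) for EXPA and 25 of 64 (39.1%) for XTH, against 39.9% of gene-site pairs of all genes. A site of this kind that was present in all 9 lists was found at 7 of 18 EXPA genes and 18 of 23 XTH genes, against 30.9% of all genes. The median distance of upstream summits from the start was 1017 bp for EXPA and 669 bp for XTH, against 647 bp for all genes. Gene bodies held 27.9% of EXPA and 28.1% of XTH pairs, against 21.6%, and downstream stretches held 27.9% and 23.4%, against 25.1%.

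A window peak need not belong to the member. The member's own start was the nearest to the summit at 31 of 43 EXPA and 48 of 64 XTH pairs, and for the best site of each gene at 9 of 15 EXPA and 17 of 23 XTH genes. Each site was placed at the summit of its highest-ranking window peak over the 9 lists, so these positions rest on a single list per site. The summit of the best peak lay outside the window at 2 EXPA genes (EXPA4 and EXPA7) and 3 XTH genes (XTH7, XTH15 and XTH28). The EXPA4 summit was at −2571 bp, while the median over the lists was −1335 bp, inside the window. The best EXPA5 site was placed 2092 bp past its start, with a median of 1510 bp. When peaks were given to the gene with the nearest start, 11 EXPA and 21 XTH genes were bound at all 3 time points, against 44.3% of all genes.

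**Figure D3:**
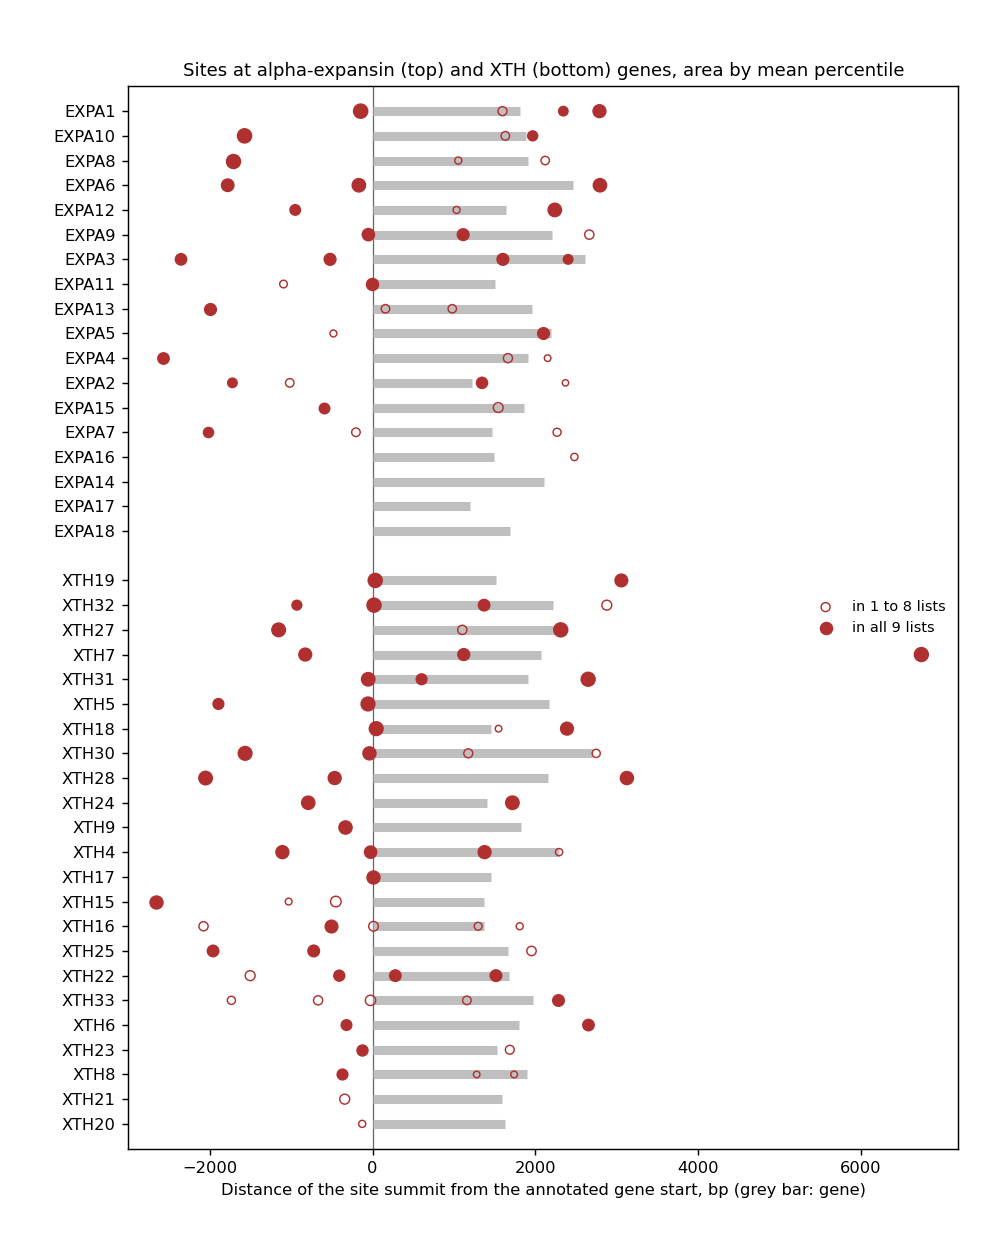
Distance of each site summit from the annotated gene start in bp (x axis, negative upstream) for the members (rows, EXPA above XTH), with the gene as a grey bar, filled symbols for sites in all 9 lists and open symbols for sites in 1 to 8 lists. Filled symbols within 1000 bp upstream are found at most XTH genes and at fewer EXPA genes, and the XTH7 summit lies 6745 bp past its start.

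The next question was whether SOB3-GFP occupancy at member sites differed between the time points. Seedlings were 6 days old at ZT24 and 5 days old at ZT4 and ZT9. Age and time of day therefore cannot be told apart in comparisons with ZT24. Of the members' 104 sites, 63 were present in all 9 lists (25 EXPA and 38 XTH), 60.6% against 46.8% of all sites. At such sites each fold enrichment was turned into a rank over the 13251 sites shared by all lists, and time points were compared with limma on normal scores of these ranks. Differences passed an adjusted p of 0.05 at 8 of 63 member sites (3 EXPA and 5 XTH), against 14.6% of all shared sites, so the members' share was close to that of all sites. The count of called member sites was 3, 4 and 5 without ZT4 replicate 1, 2 or 3, 4, 6 and 5 without ZT9 replicate 1, 2 or 3, and 3, 3 and 4 without ZT24 replicate 1, 2 or 3. At ZT9 against ZT4, 1 EXPA and 2 XTH sites ranked higher (4.09% of all shared sites) and 2 EXPA and 0 XTH sites lower (4.23%). At ZT24 against ZT4, 0 EXPA and 3 XTH sites ranked higher (2.38%) and 0 of either family lower (2.62%). At ZT24 against ZT9, 2 EXPA and 4 XTH sites ranked higher (4.63%) and 1 EXPA and 0 XTH sites lower (4.35%). The 6 higher sites of this contrast include 2 outside the 8, the XTH27 site above and an EXPA9 site at −51 bp (limma, adjusted p = 0.038 for the contrast and 0.054 for the F test).

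At most of the 8 called sites, though not at all, the denominator of the fold also differed between time points. The background behind each peak, recovered from the deposited fold and p, was more alike within a time point (rank correlation across the shared sites 0.737 to 0.761) than between time points (0.152 to 0.215). With 1 input per time point, input and time point cannot be told apart in the fold rank. The pileup, which does not use the input, was ranked and tested in the same way. By pileup rank, 0 of 63 member sites passed, against 0.226% of all shared sites, with a lowest adjusted p among members of 0.154 in limma. At an unadjusted p of 0.05, 7 of 63 member sites passed by pileup rank, against 12.97% of all shared sites, and 21 by fold rank, against 34.8%. Ranked by −log10 p instead, 0 of the 8 sites passed, with limma adjusted p-values of 0.066 to 0.384. The time point with the lowest mean fold had the highest mean background at 6 of the 8 called sites, against 88.0% of all called and 72.9% of all shared sites. The highest mean fold went with the lowest mean background at 5 of the 8, against 79.6% and 70.4%, and the background is the divisor of the fold by construction.

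XTH15, a gene known to respond to shade, ranked higher at ZT24, and the call held under 14 of 15 alternatives, the −log10 p rank being the exception. Folds at its upstream site (chr4:8139584-8141499) were 3.95, 3.13 and 4.35 in the ZT4 lists, 3.83, 3.21 and 3.39 in the ZT9 lists, and 6.79, 6.59 and 5.39 in the ZT24 lists. The ZT24 lists were all above the other 6, with mean rank percentiles of 60.01 ± 11.5 in the ZT4 lists, 59.1 ± 9.14 in the ZT9 lists, and 92.4 ± 2.98 in the ZT24 lists (SD, n = 3 each; limma, adjusted p = 0.013). The normal score was higher by 1.22 ± 0.23 (SE) at ZT24 than at ZT9 (adjusted p = 0.015). Leaving out each list in turn gave adjusted p-values of 0.015 to 0.044 for the 3 time points.

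The XTH15 site is wide and was drawn differently in the lists. At ZT4 and ZT9 each list had one peak with a summit between −1741 and −1617 bp and another between −2698 and −2617 bp, and at ZT24 each list had a single peak with its summit between −2663 and −2597 bp. At the farther summit the folds were 3.13 to 4.11 in the ZT4 lists, 2.94 to 3.10 in the ZT9 lists, and 5.39 to 6.79 in the ZT24 lists. The pileup there was 4.94 to 6.01 times the genome mean in the ZT4 lists, 4.98 to 5.67 in the ZT9 lists, and 6.03 to 7.56 in the ZT24 lists. The ZT24 pileups were the highest at this summit, although the nearer ZT4 peaks reached 6.17 times the genome mean, and the pileup rank of the site did not pass the test (limma, adjusted p = 0.497). The recovered background at the farther summit was 17.2 to 24.3 fragments in the ZT4 lists, 23.8 to 27.0 in the ZT9 lists, and 12.7 to 15.9 in the ZT24 lists. At the nearer summit, which gave the higher fold in all ZT9 lists, it was 17.02 to 20.5 in those lists. A second XTH15 site, at −451 bp and printed above, had peaks in 2, 2 and 3 lists at ZT4, ZT9 and ZT24.

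XTH23 (XTR6) ranked lower at ZT4. Its site at −129 bp had folds of 2.87, 1.74 and 1.97 in the ZT4 lists, 3.96, 3.71 and 2.66 in the ZT9 lists, and 3.06, 3.20 and 3.11 in the ZT24 lists. Rank percentiles ran between 0.913 and 19.5 in the ZT4 lists, between 39.7 and 65.0 in the ZT9 lists and between 31.8 and 43.7 in the ZT24 lists (limma, adjusted p = 0.016), without overlap between ZT4 and the later times. ZT9 exceeded ZT4 by 1.92 ± 0.35 normal-score units (SE). As unranked folds ZT4 and ZT9 overlapped, since ZT4 replicate 1 was above the lowest ZT9 list. The pileups were 4.08, 2.72 and 3.01 times the genome mean in the ZT4 lists, 4.74, 4.29 and 3.10 in the ZT9 lists, and 3.78, 3.99 and 3.88 in the ZT24 lists (pileup rank, limma, adjusted p = 0.384). Leaving out each list gave adjusted p-values of 0.0095 to 0.046 by fold rank.

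XTH6 ranked higher at ZT24. Its site at −320 bp had folds of 2.81, 2.10 and 2.52 in the ZT4 lists, 2.69, 2.14 and 2.32 in the ZT9 lists, and 3.38, 3.67 and 3.11 in the ZT24 lists (limma, adjusted p = 0.027). The ZT24 lists were the highest without overlap, and the pileups, 2.90 to 4.01 times the genome mean at ZT4 and ZT9 together and 3.71 to 4.40 at ZT24, overlapped. Leaving out each list gave adjusted p-values of 0.035 to 0.088, and the call was lost without ZT4 replicate 2 or any 1 of the ZT24 lists.

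XTH19 and XTH24 differed by fold rank but hardly by pileup. At the XTH19 start (chr4:14829757-14830681) the mean fold rank was 97.2 ± 1.24 in the ZT4 lists, 89.4 ± 2.57 in the ZT9 lists, and 97.8 ± 0.783 in the ZT24 lists (SD, n = 3 each; limma, adjusted p = 0.045), and the mean pileup rank was 95.8, 97.1 and 97.3. The XTH19 background was 14.02 to 19.4 fragments in the ZT4 lists, 24.7 to 27.0 in the ZT9 lists, and 15.6 to 19.4 in the ZT24 lists. XTH24 (AT4G30270), also known as MERI5, had its called site (chr4:14818681-14819496) 1719 bp past its start, 208 bp past the start of AT4G30260, with folds of 4.10, 4.08 and 3.26 in the ZT4 lists, 5.51, 5.02 and 4.65 in the ZT9 lists, and 6.18, 5.19 and 5.71 in the ZT24 lists (limma, adjusted p = 0.037). The XTH24 pileup ranks averaged 87.3, 84.7 and 84.0, and the background was 25.1 to 29.5 fragments in the ZT4 lists, 17.9 to 19.0 in the ZT9 lists, and 14.8 to 18.4 in the ZT24 lists. Leaving out each list gave adjusted p-values of 0.058 to 0.117 for XTH19, which lost its call in each such fit, and of 0.030 to 0.117 for XTH24, which kept it only without ZT4 replicate 2.

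The 3 called EXPA sites were not the best-ranked sites of the family. EXPA1 had one 2789 bp past its start (chr1:26144358-26144939), with folds of 5.41, 4.36 and 5.22 in the ZT4 lists, 3.35, 3.47 and 2.83 in the ZT9 lists, and 3.81, 3.77 and 3.67 in the ZT24 lists (limma, adjusted p = 0.023), highest at ZT4 without overlap. Its pileup ranks averaged 75.3, 74.6 and 73.7, while the background was 15.7 to 18.03 fragments in the ZT4 lists, 25.2 to 26.4 in the ZT9 lists, and 16.7 to 26.8 in the ZT24 lists. EXPA2 (AT5G05290), an expansin of germinating seeds, had folds of 2.78, 2.33 and 2.75 in the ZT4 lists, 4.13, 2.97 and 3.08 in the ZT9 lists, and 2.73, 2.54 and 2.73 in the ZT24 lists at a site 1346 bp past its start (chr5:1569824-1570176; limma, adjusted p = 0.027). The ZT9 lists of EXPA2 were the highest, and its pileup ranks moved the same way, with means of 9.01, 28.4 and 4.99 (limma, adjusted p = 0.191), at a summit nearest to AT5G05300. The EXPA2 background overlapped between time points, at 14.6 to 18.7 fragments in the ZT4 lists, 14.5 to 16.5 in the ZT9 lists, and 13.3 to 16.6 in the ZT24 lists. EXPA9 (AT5G02260) had folds of 3.96, 3.16 and 4.09 in the ZT4 lists, 2.50, 2.92 and 1.91 in the ZT9 lists, and 3.93, 3.48 and 3.24 in the ZT24 lists at a site 1114 bp inside the gene (chr5:463933-464462; limma, adjusted p = 0.034). The EXPA9 lists were lowest at ZT9, where the background was 22.98 to 28.9 fragments, compared with 15.1 to 21.5 in the ZT4 lists and 14.8 to 18.4 in the ZT24 lists. Leaving out each list gave adjusted p-values of 0.032 to 0.060 for EXPA1, which lost its call without any 1 of the ZT4 lists. The range was 0.030 to 0.082 for EXPA2, which kept its call without ZT4 replicate 3, ZT9 replicate 2 or ZT24 replicate 3, and 0.013 to 0.095 for EXPA9, which kept it only without ZT9 replicate 2.

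**Figure D4:**
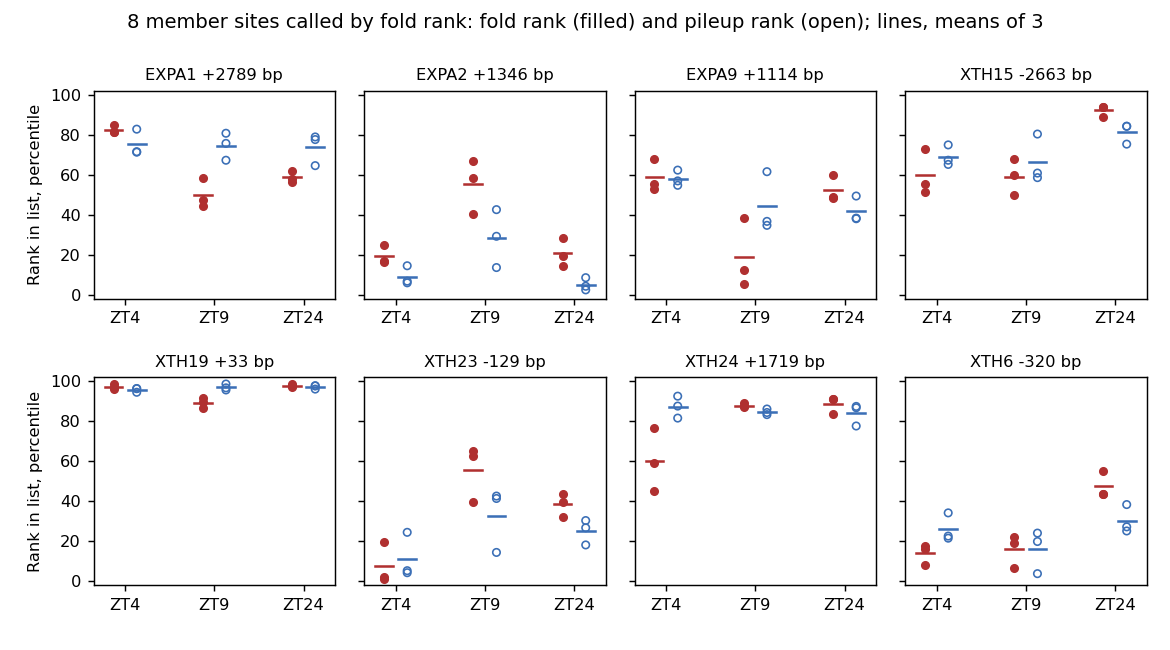
Rank percentile among shared sites (y axis) by fold enrichment (filled, red) and by pileup (open, blue) at ZT4, ZT9 and ZT24 (x axis) for the 8 member sites called by fold rank, with 3 replicates as points and their means as lines. At XTH15 the fold rank averages 92.4 at ZT24 against 59.1 at ZT9, while at EXPA1, XTH19 and XTH24 the pileup ranks of the 3 time points lie close together.

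For most members the time-point means of the best peak lay within 20 percentile points of each other. For genes with a peak in all 9 lists, the median percentile at ZT4, ZT9 and ZT24 was 63.7, 68.4 and 70.6 for EXPA and 81.2, 82.3 and 89.2 for XTH, against 72.9, 70.8 and 72.5 for all genes. The time-point means of a gene lay more than 20 percentile points apart at 4 of 14 EXPA genes (EXPA7, EXPA4, EXPA2 and EXPA9) and 2 of 21 XTH genes (XTH23 and XTH15), against 26.4% of all genes. At each of these 4 EXPA genes the best peak came from more than 1 site, but to different extents. At EXPA7 and EXPA4 a single site gave it in 8 of the 9 lists. At EXPA2 and EXPA9 a site gave it in 6 lists and another site in 3. The XTH15 value came from the nearer summit at ZT4 and ZT9 and from the farther one at ZT24. At XTH23 all 9 values came from the same site, the one described above. Where the site or summit differed between lists, the gap is not a change at a single site alone. The time-point means lay closest at EXPA1 (0.771 percentile points apart) and XTH32 (0.698). Both genes ranked near the top of the scale (mean percentiles 99.2 and 96.7), which leaves little room for percentiles to differ. A small gap there does not show a constant fold. Mean folds of EXPA1 were 9.04 in the ZT4 lists, 7.16 in the ZT9 lists and 8.59 in the ZT24 lists. Those of XTH32 were 6.54, 6.19 and 6.67, in the same order. The other 9 XTH genes with mean percentiles above 90 had time-point means 2.31 (XTH5) to 8.34 (XTH24) points apart, with 4.46 at XTH19. Among them the best peak changed site between lists at XTH19, XTH24, XTH27 and XTH28. All ZT4 values of XTH24 came from another site than its ZT9 and ZT24 values.

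Motif content was compared over 300 bp around each summit. PIF-like matches were present in 22 of 43 EXPA sites (51.2%, exact binomial 95% interval 35.5% to 66.7%) and 23 of 61 XTH sites (37.7%, 25.6% to 51.0%), against 33.0% of all 28285 sites. The G-box CACGTG, one of the 4 PIF-like spellings, was present in 2 EXPA and 3 XTH sites, against 10.4% of all sites. TCP-like matches were present in 39.5% of EXPA and 39.3% of XTH sites, against 34.0% of all sites, and AT-rich matches in 51.2% and 54.1%, against 49.8%. Sites with both a TCP-like and a PIF-like match made up 23.3% of EXPA and 19.7% of XTH sites, against 11.1% of all sites. In 100 bp around the summit, PIF-like matches were present in 18.6% of EXPA and 8.20% of XTH sites, against 15.1% of all sites, so the XTH share was above that of all sites in the longer window and below it in the shorter. The same turn was seen for AT-rich matches, which were present in 30.2% of EXPA and 16.4% of XTH sites in the shorter window, against 25.6% of all sites. These shares were not tested, the intervals cover counting error only, and the median GC content of the windows was 33.0% for EXPA and 31.3% for XTH, against 32.3% for all sites.

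**Figure D5:**
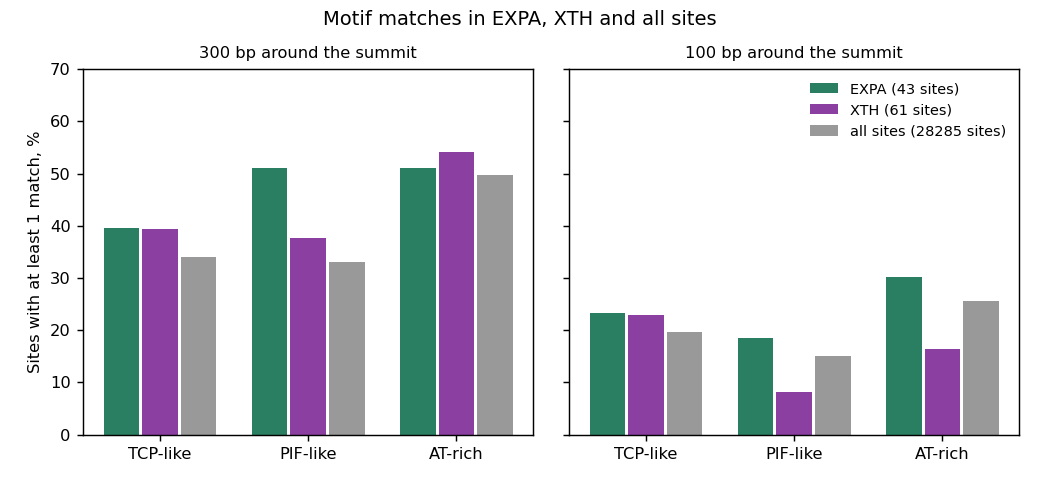
Share of sites with at least 1 match (y axis, %) to TCP-like, PIF-like and AT-rich motifs (x axis) in 300 bp (left) and 100 bp (right) around the summit, for EXPA, XTH and all sites. In the longer window PIF-like matches occur in 51.2% of EXPA sites, 37.7% of XTH sites and 33.0% of all sites.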

How the data were processed

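SOB3-GFP ChIP-seq of 9 samples (3 replicates at each of 3 time points) was used, and the 3 inputs entered only through the deposited peaks. Per the labels and methods, the authors aligned reads to TAIR10 using Bowtie, retaining unique alignments, and ran MACS2 against input for each replicate separately (versions are not given in the sources used here). The deposited lists give a fold enrichment, a −log10 p, a −log10 q and an integer score per peak, in the output of the authors' peak caller. The score was not analysed further. Unique mapping removes reads from near-identical gene copies, which can lower peaks in tandem XTH and EXPA genes.

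Genes came from the RefSeq annotation of TAIR10.1, whose nuclear chromosomes carry TAIR10 coordinates. Overlapping nuclear peaks were merged into 28285 sites. The pileup and background of each peak were solved from the fold and −log10 p, and a whole-number pileup met the deposited −log10 p within 0.001 for 100% of peaks. The lowest background of a list, its genome mean pileup, was 12.1 to 15.8 fragments and was the only measure of depth. The nuclear peaks numbered 20988 to 24827 per list. limma 3.58.1 in R 4.3.3 tested normal scores of ranks at 13251 shared sites (moderated F test and contrasts, Benjamini-Hochberg over all of them, threshold 0.05) and was checked on simulated ranks. p-values set differences between time points against the moderated spread between replicates of a time point. For the fold rank this spread leaves out variation between inputs, since 1 input was made per time point. A site's value in a list was the highest among its peaks for each measure, and its background was that of the peak with the highest fold. The other steps used Python 3.11.15 with pandas 2.3.3, numpy 2.4.6 and scipy 1.17.1.

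The members and lists were chosen with earlier results of these data known. Values in every sample were given for the 5 highest-ranking members of each family, members bound at 1 or 2 time points, members with a called site and XTH15, and XTH20 and XTH5 were added after their values were seen. Alternatives covered peak thresholds, gene windows, ranking measures, the replicate block, leaving out each list and motif windows.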

Additional observations from a re-analysis of the deposited data

How the results depend on the processing

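Of the alternatives run on the counts of bound genes, a −log10 q of at least 10 gave 8 EXPA genes and the window from 1000 bp upstream to 100 bp downstream gave 9, against 14, and the others on the same 18 genes gave 11 to 15. The XTH count of the 23 listed genes lay between 17 and 21. The EXPA minus XTH difference of medians stayed negative under every alternative run, at −22.0 to −13.2, and leaving out single lists gave −18.1 to −15.3 for it, 14 for the EXPA count and 21 for the XTH count.

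Calls between time points depended on the measure. Ranks of −log10 p called 238 sites of all and 0 of the members' (152, 45 and 154 for ZT9 against ZT4, ZT24 against ZT4 and ZT24 against ZT9). Log2 fold called 3093 and 15 (1751 and 1285 for the first 2 contrasts). Sites in at least 2 of 3 replicates gave 339 for ZT24 against ZT4. Ranking among all peaks of a list, chosen after seeing the data, called 1173 and 3 (246 for ZT24 against ZT4 and 791 for ZT24 against ZT9), and 0 by pileup. Log2 pileup called 61 sites, 0 of them members'. Leaving out single lists called 964 to 1315 sites, 3 to 6 of them members', with 507 to 1013, 146 to 643 and 396 to 1080 in the 3 contrasts, and by pileup rank 0 to 2 and 0 of the members'. Fits without a list hold fewer samples, and the causes were otherwise not tested.

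Replicate numbers are shared between time points, but deviations of same-numbered lists correlated at −0.045 to 0.058 by fold rank. At both other time points together, 0 of 9 lists were closest to their own number, so the numbers were not taken as pairs. The replicate block called 1400 sites, 7 of them members', 322 for ZT24 against ZT4, and 0 by pileup rank. Of the 8 member sites 5 were among the 7, those at XTH19, XTH24 and EXPA9 were not (limma, adjusted p = 0.076, 0.066 and 0.055), and a site inside EXPA3 (0.047) and one shared by XTH22 and XTH25 (0.040) were added.

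In 100 bp windows the EXPA shares were 23.3% (TCP-like), 18.6% (PIF-like) and 30.2% (AT-rich) and the XTH shares 22.95%, 8.20% and 16.4%, against 19.7%, 15.1% and 25.6% of all sites. Shorter windows hold fewer matches by construction. In sites of all 9 lists PIF-like matches were present in 68.0% of EXPA and 47.4% of XTH sites, against 38.1% of all such sites, and TCP-like matches in 36.0% and 52.6%, against 37.7%.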

Other observations

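Other wall genes were counted in the same way. Of 16 further expansin genes (EXPA20 to EXPA26, beta-expansins and expansin-like genes), 10 were bound at all 3 time points and 4 had no peak in any list, with mean percentiles between 28.0 (EXPA24) and 91.8 (EXPA20) among those with a peak in all 9 lists. EXPA21, EXPA22 and EXPA23, neighbours on chromosome 5, had no peak, whereas EXPA24 had one in all 9 lists and EXPA25 and EXPA26 in 8. Of 10 further XTH genes, 3 were bound at all 3 time points, with mean percentiles between 38.5 (XTH11) and 58.9 (XTH14). XTH12, in a tandem group with XTH13, XTH25 and XTH22, had a peak in 0, 0 and 3 lists at ZT4, ZT9 and ZT24, the pattern also seen at XTH21; it was picked out after its values were seen.

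All 6 primary wall cellulose synthase genes were bound at all 3 time points, with mean percentiles between 82.7 (CESA5) and 94.8 (CESA1) for the 5 with a peak in all 9 lists. Of 6 xyloglucan synthesis genes, 4 were bound at all 3 time points, between 56.3 (XXT5) and 95.4 (CSLC4, a xyloglucan backbone synthase), and MUR3, a xyloglucan galactosyltransferase, had no peak in any list. Of all genes 61.3% were bound at all 3 time points, but the cellulose synthase genes are longer, with a median window of 8621.5 bp against 5078 bp for all genes, and the xyloglucan synthesis genes had 5203.5 bp.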
